A study of Mus musculus with 27 samples.

Results

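NZO/HlLtJ, the New Zealand Obese strain, was compared with 8 other inbred mouse strains by RNA sequencing of hepatocytes, the metabolic cells of the liver. The comparison used the 3 NZO/HlLtJ libraries of 27 in all, chosen by their strain label, against the 24 libraries of 129S1/SvImJ, A/J, C57BL/6J, CAST/EiJ, DBA/2J, NOD/ShiLtJ, PWK/PhJ and WSB/EiJ, at 3 per strain. All mice were females aged 12 weeks, all cells were labelled hepatocytes from liver, and no group had a treatment or an engineered allele per the labels. CAST/EiJ, PWK/PhJ and WSB/EiJ are wild-derived, and the other 6 strains are classical laboratory strains. Body weight, fat mass and blood glucose were not among the data analysed here.

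NZO/HlLtJ mice become obese on ordinary food, as a trait built from many genes, and are resistant to insulin and leptin. The liver of an obese, insulin-resistant animal typically stores triglyceride in lipid droplets, while insulin loses part of its hold on glucose output. Hepatocytes also make bile acids from cholesterol, export both into bile, and secrete most plasma proteins, so each of these functions was described in turn.

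Library totals ran from 17015942 to 35078485 estimated counts, and those of NZO/HlLtJ from 26853336 to 32241597. Levels are given as CPM, counts scaled to library size with TMM factors, and 1 count was worth 0.0253 to 0.0515 CPM. The TMM factors of NZO/HlLtJ were 1.161 to 1.226, against at most 1.188 in the other strains. The 14 hepatocyte markers summed to 142836 to 151026 CPM in NZO/HlLtJ, inside the range of 136106 to 393058 in the other libraries, whose median was 181885. Markers of liver endothelial cells, the lining of the sinusoids, were low in NZO/HlLtJ: 16 genes summed to 94.4, 112.7 and 167.9 CPM, against 104.4 to 1236 with a median of 276.3 elsewhere, and none of the 16 was at 0. Of the 14 stellate cell markers, which mark the fat-storing pericytes of the liver, all but Acta2 were detected, with sums of 39.0 to 66.9 CPM against a median of 107.0 and a highest sum of 220.7. Kupffer cell markers (the resident macrophages) summed to 48.4 to 131.5 CPM, inside the range of 41.6 to 483.6. In bulk samples fewer cells of a type and less RNA per cell cannot be told apart. Among the red cell markers Slc4a1 was at 0 in all 3 libraries, and of the adipocyte markers Adrb3, Cfd, Lep and Retn were.

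NZO/HlLtJ differed from the mean of the 8 other strains in 4002 of 14482 genes tested (27.6%), of which 2141 were higher (14.8%) and 1861 lower (12.9%). A gene was called at an adjusted p under 0.05 in edgeR's quasi-likelihood test with Benjamini-Hochberg adjustment. A change of at least 2-fold was found for 1536 of them (10.6%), 778 higher (5.37%) and 758 lower (5.23%). Leaving out a single NZO/HlLtJ library left 2085 calls without replicate 1, 2086 without replicate 2 and 3114 without replicate 3. With the means of the Kupffer cell and endothelial marker lists as covariates, 1597 genes were called, 960 higher and 637 lower.

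A difference from a mean can come from a few strains, so NZO/HlLtJ was also required to differ from every other strain in the same direction. By this stricter test 24 genes were called (0.166%), 10 higher (0.0691%) and 14 lower (0.0967%). In 357 genes (2.47%) the 3 NZO/HlLtJ libraries lay outside the range of all 24 others, 199 above (1.37%) and 158 below (1.09%), and all 357 were also called against the mean. The strain with the nearest level was 129S1/SvImJ for 52 of the 199 and for 50 of the 158. NOD/ShiLtJ was nearest for 48 of the 199 but for 16 of the 158. The 357 genes were spread over all the autosomes and the X chromosome, at 1.57% to 3.31% of the genes tested on each, and 3 of the 15 tested genes of the mitochondrial genome were among them. The plot of all genes by level and fold change marks these classes.

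**Figure D1:**
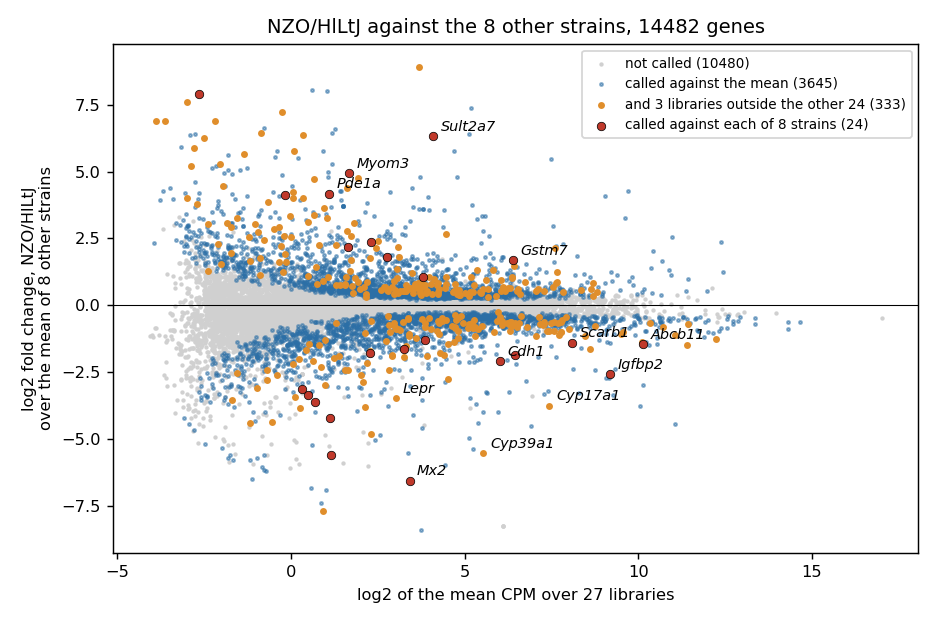
Each point is a gene, with the log2 of its mean CPM over 27 libraries on the x axis and the log2 fold change of NZO/HlLtJ over the mean of the 8 other strains on the y axis. Blue points are called against the mean, orange points also have 3 NZO/HlLtJ libraries outside the range of the other 24, and the 24 red points are called against each strain. Sult2a7 stands at the top among the well-expressed red genes, and Igfbp2, Abcb11 and Scarb1 are the red genes at high levels that lie below 0.

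Of the 24 genes, 13 with gene symbols other than clone-type or predicted names (Rik, Gm and accession-like names and annotated pseudogenes were passed over) averaged at least 10 CPM in NZO/HlLtJ or over the other strains, whichever was higher. They were 6 higher and 7 lower genes and are described in full. The largest increase was in Sult2a7, a member of the hydroxysteroid sulfotransferase family (ENSMUSG00000094156, chr7:14465051-14494230 in GRCm38, minus strand). It reached 98.9, 109.8 and 124.6 CPM in replicates 1, 2 and 3, while the other libraries ran from 0.0343 to 28.2 CPM with a median of 1.32. No other library came near NZO/HlLtJ: C57BL/6J, the next strain, averaged 19.2 ± 8.66 CPM (SD, n = 3). The log2 fold change was 6.32 ± 0.22 (SE) with an adjusted p of 7.17e-17 against the mean and 0.00116 against each strain. Because some strains had almost none, the log2 ratio of arithmetic means was smaller, at 4.34.

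Myom3 (chr4:135759715-135815564, plus strand) encodes a myomesin, a protein of the muscle sarcomere. Its level was 24.1, 17.1 and 20.0 CPM in NZO/HlLtJ, and 0 to 4.79 CPM elsewhere with a median of 0.464. Pde1a (chr2:79834453-80129458, minus strand) encodes a calmodulin-dependent phosphodiesterase that breaks down cyclic nucleotides. It stood at 11.0, 12.0 and 12.4 CPM in NZO/HlLtJ, against 0 to 2.65 CPM with a median of 0.614. The log2 fold changes were 4.94 ± 0.27 for Myom3 and 4.17 ± 0.22 for Pde1a, with adjusted p of 0.00407 and 0.00393 against each strain. For both genes the strain with the next highest mean was WSB/EiJ, at 2.8 and 2.29 CPM.

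Gstm7 (chr3:107926334-107931817, minus strand), a glutathione transferase of the mu class, is an abundant liver transcript that also rose. Its NZO/HlLtJ libraries held 191.2, 205.6 and 232.4 CPM, while 39.1 to 136.1 CPM with a median of 61.2 was found elsewhere. The log2 fold change was 1.69 ± 0.11 (adjusted p against each strain 0.0422). Fam171a1 rose by 2.38 ± 0.19 on the log2 scale, with 13.1, 16.1 and 20.0 CPM against at most 7.59. Casp9, the initiator caspase of the mitochondrial route to apoptosis, rose by 1.07 ± 0.12, with 30.4, 25.3 and 21.4 CPM against 9.0 to 16.9. All 3 genes were separated from the other strains without overlap.

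The lower genes were led by Igfbp2 (chr1:72824503-72852474, plus strand), a secreted protein that binds insulin-like growth factors and that is known to be low in livers of obese mice. Its level was 123.6, 112.9 and 76.6 CPM in NZO/HlLtJ, against 234.7 to 950.5 CPM with a median of 647.1 in the other libraries. The highest NZO/HlLtJ library was thus below the lowest of the other 24, which belonged to NOD/ShiLtJ, the strain with the next lowest mean (340.5 CPM). The log2 fold change was -2.56 ± 0.23, with an adjusted p of 5.64e-09 against the mean and 0.00116 against each strain.

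Abcb11, the bile salt export pump of the canalicular membrane (chr2:69238282-69342616, minus strand), held 338.6, 440.1 and 531.5 CPM. Every other strain was higher, with libraries from 866.5 to 2192 CPM and a median of 1116. The log2 fold change was -1.45 ± 0.17 (adjusted p against each strain 0.00596). Scarb1, the receptor through which hepatocytes take cholesterol from HDL (chr5:125277087-125341094, minus strand), held 101.0, 96.5 and 132.2 CPM. Its other libraries ran from 197.1 to 466.2 CPM with a median of 271.3, and the log2 fold change was -1.40 ± 0.18 (adjusted p against each strain 0.0316). Abcb11 overlaps the annotated genes Gm13613 and Gm13614 on the opposite strand, and its estimated counts were not whole in 26 libraries.

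Cdh1, which encodes the adhesion protein E-cadherin (chr8:106603351-106670246, plus strand), stood at 18.9, 17.3 and 13.2 CPM. It ran from 27.8 to 112.7 CPM with a median of 73.3 elsewhere, a log2 fold change of -2.08 ± 0.24 (adjusted p against each strain 0.011). Bile duct cells express Cdh1 as well: the 9 markers of that cell type summed to 2.41 to 4.46 CPM in NZO/HlLtJ against a median of 3.48, and Cftr, Cldn4 and Krt19 were at 0 in all 3 libraries. The part of other cells in the Cdh1 difference was not tested further.

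Pfas, an enzyme of purine synthesis, was at 3.16, 3.21 and 3.01 CPM against 5.67 to 17.5, a log2 fold change of -1.64 ± 0.14. Rab4a, a small GTPase that returns endosomal cargo to the cell surface, was at 6.67, 5.92 and 6.41 CPM against 11.0 to 24.1, a log2 fold change of -1.27 ± 0.11. Pqlc1 was at 23.9, 22.7 and 30.4 CPM against 60.5 to 163.5, a log2 fold change of -1.85 ± 0.18. The adjusted p against each strain ran from 0.00116 for Rab4a to 0.00172 for Pfas, and none of the 3 genes overlapped with another strain. Counts of Pfas and Pqlc1 were not whole in any of the 27 libraries, which means that their reads were shared out by estimate. All 13 genes kept their call against the mean and their direction in every alternative tried. The test against each strain was less stable: of its 24 genes 14 were called again without NZO/HlLtJ replicate 2 and 12 with the Kupffer cell and endothelial marker means as covariates.

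Among the 11 other genes of the 24, chosen here after their values were seen, were several with low levels. The condensin subunit Ncapg was at 4.31, 4.88 and 5.96 CPM against at most 1.05, but it overlaps Lcorl on the opposite strand and its counts were not whole in any library. Klhdc8a was at 11.3, 9.72 and 8.85 CPM against at most 3.16. In the other direction, Fam57a was at 0.101 to 0.192 CPM against 0.822 to 2.91. Others were 2310001H17Rik, higher, and 4933431E20Rik, D930016D06Rik, Gm17251, 2810414N06Rik, ENSMUSG00000100493 and the interferon-induced gene Mx2, annotated as a polymorphic pseudogene, all lower.

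**Figure D2:**
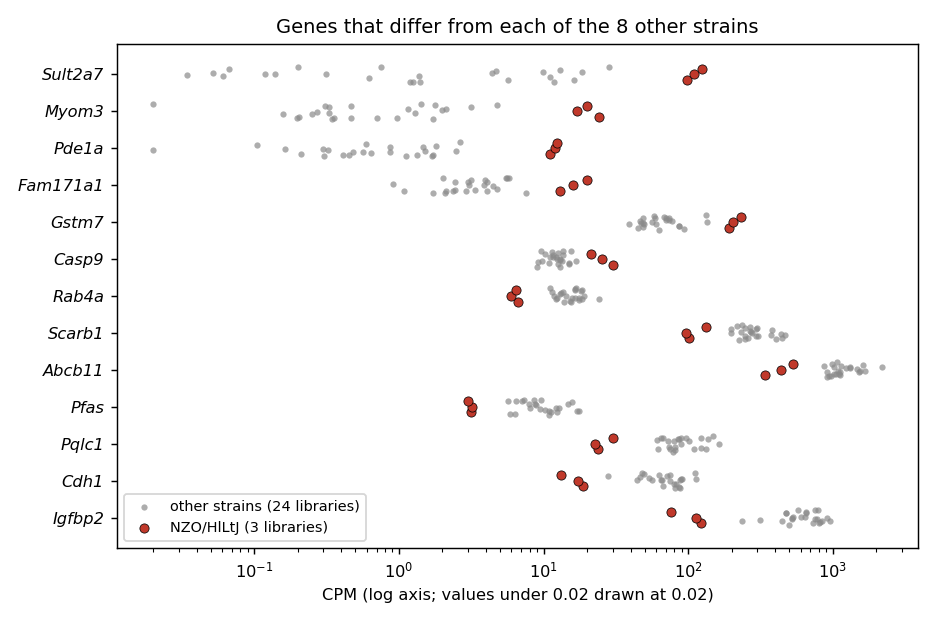
CPM of the 13 described genes on a log axis, with 1 point per library. The 3 NZO/HlLtJ libraries (red) lie to the right of all 24 others (grey) for the upper 6 genes and to the left for the lower 7, from 98.9 CPM or more against at most 28.2 for Sult2a7 to at most 123.6 against 234.7 or more for Igfbp2.

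A list of 12 genes proposed as obesity or diabetes candidates in NZO mice was examined next, and 11 were tested (all but Nmur2). Of these 1 was higher, 9 were lower and Pctp was not called (90.9% called beside 27.6% of all tested genes), with a median log2 fold change of -1.0 beside 0.016 over all tested genes. Several entered the list because earlier work found them absent or altered in NZO mice, so the direction of the list is no independent evidence. Without NZO/HlLtJ replicate 1, 2 or 3 the counts were 1 higher and 5 lower, 0 and 6, and 1 and 7, and with the marker covariates 1 and 5.

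Igfbp2, described above, is 1 of the 9. Lepr, the leptin receptor (chr4:101717404-101815352, plus strand), had the largest decrease of them by fitted fold change, though F830016B08Rik had the larger one by arithmetic means (log2 -4.34 against -3.80). Lepr was at 0.509, 0.607 and 0.673 CPM in NZO/HlLtJ, against 1.52 to 37.7 CPM with a median of 5.97 elsewhere. All 3 libraries were below all others, and the log2 fold change was -3.45 ± 0.37 (adjusted p 1.24e-07). Against each strain the adjusted p was 0.171, since DBA/2J averaged only 2.0 CPM. The neighbouring Leprot, which is not on the list, was chosen after its values were seen. This gene, which shares its first exons with Lepr and limits leptin receptor traffic to the surface, was at 8.05, 6.53 and 7.7 CPM against a median of 11.3, and its fold change of -0.67 ± 0.16 (log2, adjusted p 0.00361) lost its call with the cell marker covariates (adjusted p 0.154). The call of Lepr was kept in every alternative.

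The candidates Gm4951 and F830016B08Rik, interferon-inducible GTPase genes reported as repressed in NZO liver, were at 3.57 to 4.97 and at 0.204 to 0.354 CPM. The other libraries ran from 0.0515 to 82.8 CPM with a median of 40.2 for Gm4951, and from 0.155 to 21.4 CPM with a median of 6.12 for F830016B08Rik. CAST/EiJ was lower than NZO/HlLtJ for both, at 0.207 and 0.211 CPM. For F830016B08Rik, PWK/PhJ (0.283 CPM) and 129S1/SvImJ (0.474 CPM) were also near absent, so the low level of both genes was shared. Zfp69, a zinc finger gene linked to diabetes in crosses with NZO, was at 0.408, 0.43 and 0.16 CPM against 0.376 to 1.81. Its log2 fold change was -1.46 ± 0.34 (adjusted p 0.00238), and C57BL/6J averaged nearly as little, at 0.444 CPM.

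Abcg1, a cholesterol exporter, fell by 1.0 ± 0.31 on the log2 scale, and its adjusted p of 0.0214 rose to as much as 0.353 without single NZO/HlLtJ libraries or with the marker covariates. Tbc1d1, a regulator of glucose transporter traffic, fell by 0.87 ± 0.22 (adjusted p 0.00517). Dpp4, the peptidase that inactivates incretins, and Apoa2, an apolipoprotein of HDL, each fell by 0.49 (SE 0.16 and 0.17, adjusted p 0.0221 and 0.0336). These 4 genes overlapped with other strains, and each lost its call in between 2 and 8 of the 43 alternatives. Ifi202b, a nucleic acid sensor, was at 0.892, 1.06 and 0.577 CPM against 0 in all libraries of C57BL/6J and 0 to 3.31 elsewhere. It was called higher (log2 1.92 ± 0.52, adjusted p 0.0105), yet its log2 ratio of arithmetic means was 0.11 and its call was lost without NZO/HlLtJ replicate 2, without C57BL/6J, without CAST/EiJ and against the 5 classical strains.

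Of 23 lipogenesis genes 1 was higher and 4 were lower, a share of 21.7% beside 27.6% of all tested genes, with a median log2 fold change of -0.19, and without NZO/HlLtJ replicate 1 or 2 the lower ones were 2 and 3. With the marker covariates 2 were lower and the median was 0.01. Fasn, the fatty acid synthase, was at 385.4, 382.4 and 443.7 CPM against 205.3 to 986.0 (log2 -0.36 ± 0.27, adjusted p 0.324). Srebf1, the regulator that insulin uses to drive this pathway, had a log2 fold change of -0.31 ± 0.25 (adjusted p 0.372), and the desaturase Scd1 one of 0.19 ± 0.37 (adjusted p 0.747). A missed threshold does not show that these levels were equal.

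Dgat1, which makes the last bond of triglyceride, was at 13.1, 14.8 and 17.4 CPM and lay below all 24 other libraries, which began at 17.6 CPM with a median of 24.2 (log2 -0.76 ± 0.15, adjusted p 0.000662). The other lower members were Insig2, Pklr and Scd2, the last of which lost its call without NZO/HlLtJ replicate 1 or 3, against the 5 classical strains and with the marker covariates. The higher one was Nr1h3, the oxysterol receptor LXR-alpha (log2 0.37 ± 0.11, adjusted p 0.0181), whose call was lost without NZO/HlLtJ replicate 1 or 2, without A/J and with the marker covariates.

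Among 28 genes of lipid droplets and fatty acid uptake 3 were higher and 6 lower (32.1% called, near the 27.6% of all tested genes, median -0.10). The lower ones were 3 without NZO/HlLtJ replicate 1 or 2 and 2 with the marker covariates. Mttp, which loads triglyceride onto nascent VLDL, was at 225.9, 246.8 and 286.5 CPM against 291.9 to 697.7 (log2 -0.78 ± 0.13, adjusted p 0.000103), again without overlap. Apob, the protein core of VLDL, and Tm6sf2, which acts in its lipidation, were also lower (log2 -0.56 and -0.54). Slc27a2, a fatty acid transporter and acyl-CoA synthetase, fell by 0.97 ± 0.17 on the log2 scale. Vldlr, a receptor for triglyceride-rich particles, was at 9.78, 20.4 and 21.6 CPM against 0.763 to 29.9 with a median of 7.14 (log2 1.68 ± 0.27, adjusted p 4.85e-05). Fitm1 was also higher, at 6.04, 5.82 and 4.87 CPM, and C57BL/6J was close to it at 4.84 CPM.

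Markers often used for fatty liver were not called: Cd36 had a log2 fold change of 0.39 ± 0.22 (adjusted p 0.201), Plin2 of 0.15 ± 0.21 (adjusted p 0.648) and Pparg of 0.89 ± 0.36 (adjusted p 0.0659). Fatty acid oxidation had the smallest share of calls among the lipid lists, with 3 higher and 1 lower of 29 (median 0.11). This was 13.8% called beside 27.6% of all tested genes, and without NZO/HlLtJ replicate 1 the list had 1 higher. Against the 5 classical strains 1 was higher and 3 were lower, and with the marker covariates the median was -0.06. Pdk4, the kinase that spares pyruvate during fasting, was at 14.4 to 17.3 CPM against a median of 7.97 (log2 1.02 ± 0.29, adjusted p 0.012), a call lost without NZO/HlLtJ replicate 1, without WSB/EiJ, against the 5 classical strains and with the marker covariates.

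In the cholesterol list 4 genes were higher and 4 lower of 29, the same 27.6% as over all tested genes, with a median of 0.26. Against the 5 classical strains the counts were 3 and 5 with a median of -0.14, and without NZO/HlLtJ replicate 2 they were 1 and 3. With the marker covariates they were also 1 and 3, with a median of 0.51. The 4 higher were Mvd (log2 1.47 ± 0.41), Pmvk (1.09 ± 0.17), Lss (0.64 ± 0.22) and Stard4 (0.56 ± 0.16), which act in sterol synthesis or sterol transport in the cell. Stard4 was at 87.1, 95.6 and 91.7 CPM, just above the other libraries at 26.6 to 85.0.

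The 4 lower genes all handle lipoprotein or biliary cholesterol. Beside Scarb1, they were Lcat, which esterifies cholesterol on HDL, and Abcg5 and Abcg8, which together form the pump that moves cholesterol into bile. Abcg8 was at 66.7, 46.0 and 70.5 CPM against 73.3 to 255.7 with a median of 154.2, below every other library (log2 -1.15 ± 0.23, adjusted p 0.000566). Abcg5 was at 54.0, 47.9 and 55.7 CPM against 52.5 to 183.6 (log2 -1.0 ± 0.16, adjusted p 6.43e-05), and DBA/2J was close at 61.1 CPM. The Abcg5 and Abcg8 genes overlap head to head on opposite strands, so reads in the overlap cannot be assigned without strand.

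Of 28 bile acid genes 13 were lower, 2 were higher and 13 were not called (median -0.46), so 53.6% of the list was called beside 27.6% of all tested genes. After Abcb11, the lower members included Abcb4, the canalicular flippase for phosphatidylcholine, at 160.7, 164.1 and 198.2 CPM against 187.8 to 463.7 (log2 -0.84 ± 0.14, adjusted p 0.0001). They also included Slc10a1, which takes bile acids up from blood (449.2, 516.4 and 625.2 CPM against a median of 847.4, log2 -0.76 ± 0.18, adjusted p 0.00318), and Cyp8b1, the enzyme that sets the share of cholic acid (log2 -1.13 ± 0.31, adjusted p 0.00862). Genes of the canalicular pumps for bile salt, phosphatidylcholine and cholesterol were thus all lower in NZO/HlLtJ. Cyp7a1, the rate-limiting enzyme of synthesis, was not called, with 64.2, 57.4 and 139.7 CPM against 23.7 to 273.9.

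The count of lower bile acid genes was 6 without NZO/HlLtJ replicate 1, 7 without replicate 2, 12 without replicate 3 and 4 with the marker covariates, and the 2 higher calls were lost in each of these. Cyp39a1, an oxysterol hydroxylase of bile acid synthesis outside the list, was chosen after its values were seen. It was at 0.662, 0.557 and 0.962 CPM against 1.85 to 173.6 with a median of 43.0, below every other library (log2 -5.52 ± 0.32, adjusted p 3.25e-12). PWK/PhJ came next at 2.25 CPM, and the adjusted p against each strain was 0.0546.

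**Figure D3:**
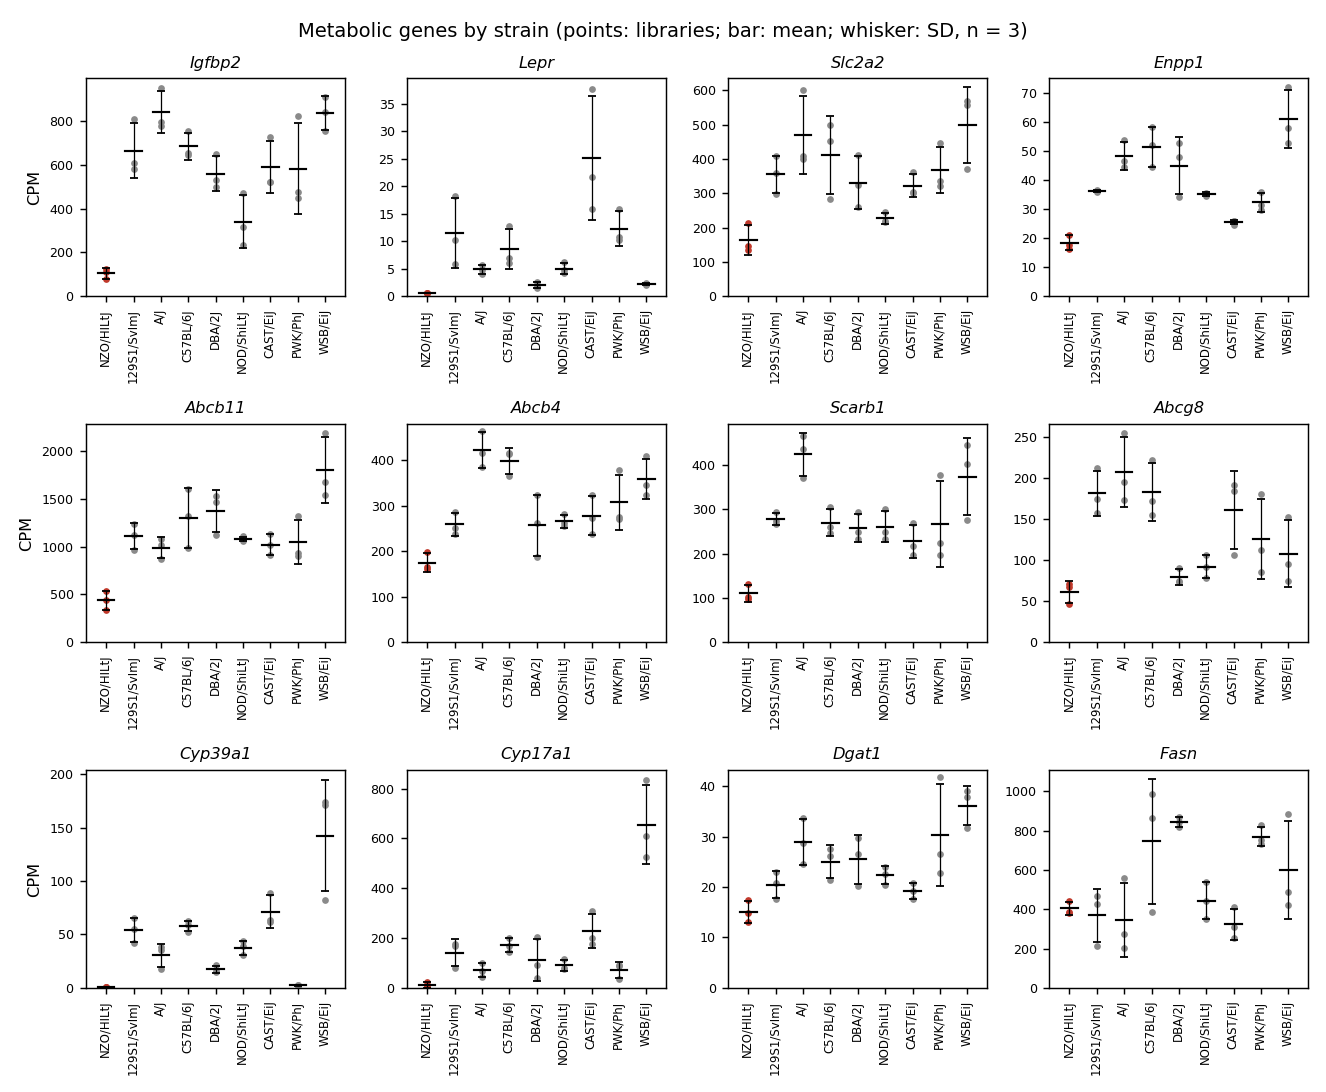
CPM of 12 metabolic genes by strain, with 1 point per library, the mean as a bar and the SD as a whisker (n = 3), NZO/HlLtJ in red. NZO/HlLtJ is the lowest strain for all of these except Fasn, whose 385.4, 382.4 and 443.7 CPM fall among the others.

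In glucose metabolism 1 gene was higher and 6 were lower of 26 (median -0.23), so the 26.9% called was close to the 27.6% of all tested genes. Slc2a2 encodes GLUT2, the transporter through which glucose enters and leaves hepatocytes. It was at 134.0, 145.7 and 213.1 CPM against 217.0 to 601.9 with a median of 360.4, below all other libraries (log2 -1.15 ± 0.19, adjusted p 9.68e-05). Slc37a4, which carries glucose 6-phosphate into the endoplasmic reticulum, and Gbe1, the glycogen branching enzyme, were also lower (log2 -0.64 and -0.58), and Gbe1 lost its call without replicate 1 or 2 and against the 5 classical strains. The lower genes of the list were 2 without NZO/HlLtJ replicate 1 or 2 and 3 with the marker covariates.

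Pck1, the gluconeogenic enzyme that insulin represses, was at 298.4, 446.6 and 1176 CPM, with replicate 3 well above the other pair, against 241.4 to 3152 and a median of 1562. PWK/PhJ had a like split, at 241.4, 243.6 and 1526 CPM. The log2 fold change of Pck1 was -1.22 ± 0.44 (adjusted p 0.0416), and the call was lost in 15 alternatives. G6pc showed the same order of NZO/HlLtJ libraries, at 231.6, 323.7 and 604.2 CPM, and was not called (log2 -0.69 ± 0.30, adjusted p 0.0876).

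Pgk1 of glycolysis was at 14.7 to 19.1 CPM against a median of 199.2, but CAST/EiJ averaged 17.2 CPM and the counts were not whole in any library. Reads of Pgk1 can also match near-identical copies elsewhere in the genome, so its log2 fold change of -3.18 ± 0.22 is uncertain. The copy Pgk1-rs7, looked up after the values of Pgk1 were seen, went the other way, with a log2 fold change of 7.38 ± 0.34 (adjusted p 2.45e-14), and the share of reads exchanged between them was not tested. The higher gene was Onecut1, a hepatocyte transcription factor, at 31.3, 42.8 and 69.4 CPM against 3.32 to 43.8 (log2 1.85 ± 0.43, adjusted p 0.00258), also with counts that were not whole in any library. Without NZO/HlLtJ replicate 1 or 2 the list held 1 higher and 2 lower genes.

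Of 29 insulin and growth hormone signalling genes 2 were higher and 4 lower (20.7% called, below the 27.6% of all tested genes, median -0.13), and without NZO/HlLtJ replicate 1 they were 1 and 2. The insulin receptor Insr, Irs2, Akt1 and Akt2 were not called, with log2 fold changes between -0.43 and 0.02. Irs1, the other main insulin receptor substrate, was lower (log2 -0.58 ± 0.18, adjusted p 0.0174). Enpp1, a membrane phosphodiesterase that can bind and restrain the insulin receptor, was at 16.4, 17.6 and 21.3 CPM, below the 24.7 to 72.3 CPM of all others (log2 -1.14 ± 0.12, adjusted p 2.07e-07). Grb10, an adaptor that restrains insulin and IGF receptors, was higher at 4.59, 4.63 and 4.52 CPM against a median of 1.42 (log2 1.45 ± 0.16, adjusted p 1.9e-07), though 129S1/SvImJ stood above it at 8.82 CPM. Socs2, which growth hormone induces, was higher at 27.6, 28.0 and 36.4 CPM against a median of 13.7 (log2 1.13 ± 0.35, adjusted p 0.0198).

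Secreted hepatokines had 1 higher and 6 lower of 19 (36.8% called beside 27.6% of all tested genes, median -0.42), with 3 lower without NZO/HlLtJ replicate 1. With the marker covariates 1 was higher and 2 were lower, and the median was -0.04. Hamp, which encodes hepcidin, the hormone that limits iron entry into blood, was at 127.2, 127.1 and 93.4 CPM against a median of 708.0 (log2 -2.37 ± 0.33, adjusted p 9.56e-06). Its neighbour Hamp2 was at 1870, 2211 and 2265 CPM against a median of 313.6 (log2 2.03 ± 0.23, adjusted p 3.91e-07), with DBA/2J higher still at 4352 CPM. The pair is nearly identical in sequence and neither had whole counts in any library, so the split of reads between them is uncertain. Fetub, Rbp4, Selenop, Ahsg and Angptl6 were lower by 0.48 to 0.94 on the log2 scale. Fetub lost its call against the 5 classical strains (adjusted p 0.0875) and Rbp4 with the marker covariates (adjusted p 0.0788). They include fetuins and the retinol carrier, which are often studied in insulin resistance.

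Acute phase genes, which hepatocytes make in inflammation, had 9 lower of 24 (37.5%, beside 12.9% of all tested genes, median -0.46). Lcn2 was at 0.306, 0.734 and 0.0962 CPM against 0.236 to 570.8 with a median of 14.5 (log2 -4.95 ± 0.83, adjusted p 8.66e-05). Cp, the copper carrier ceruloplasmin, was at 954.3, 978.4 and 1046 CPM and lay below all others, at 1253 to 2746 (log2 -0.80 ± 0.14, adjusted p 0.000122). Serpina3n was at 362.1, 350.6 and 336.9 CPM, also below all others, at 370.0 to 1575 (log2 -1.05 ± 0.19, adjusted p 0.000221), with counts that were not whole in any library. Saa1, the classic marker of an acute response, was not called (log2 -1.12, adjusted p 0.341). Without any 1 of the NZO/HlLtJ libraries 5 genes of the list were lower, and with the marker covariates 2 were higher and 4 lower.

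Interferon response genes formed the list with most calls in the upward direction: 18 were higher and 2 lower of 34 (median 0.53). This was 58.8% called beside 27.6% of all tested genes, of which 14.8% were higher. Isg15, a ubiquitin-like modifier, was at 9.71, 9.34 and 4.2 CPM against a median of 2.44 (log2 1.67 ± 0.24, adjusted p 1.33e-05). Oasl1 was at 13.8, 10.1 and 8.27 CPM against a median of 4.37 (log2 1.36 ± 0.18, adjusted p 3.39e-06). Mx1 was at 4.25, 4.71 and 1.99 CPM against a median of 0.893 (log2 2.32 ± 0.27, adjusted p 5.74e-07), with counts not whole in 26 libraries. No gene of the list lay above all other libraries, and DBA/2J had a higher mean in Isg15 and Oasl1. Replicate 3 was the lowest NZO/HlLtJ library for these 3 genes.

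The number of interferon genes called depended on which strains formed the mean. Against the 5 other classical strains alone 5 genes were higher and 2 lower, with a median of 0.24. Without NZO/HlLtJ replicate 1 the counts were 10 higher and 1 lower, without replicate 2 they were 12 and 2, and with the marker covariates 8 and 1. Mx2 went the other way and was called against each strain: it was at 0.0255, 0.101 and 0.0962 CPM, or 1 to 4 counts per library, against 2.28 to 50.7 CPM (adjusted p against each strain 3.68e-06). It is annotated as a polymorphic pseudogene, and its counts were not whole in 26 libraries.

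Of 18 interferon-inducible GTPases tested 7 were higher and 2 lower (9 of 18 called beside 27.6% of all tested genes, median 0.69), and against the 5 classical strains 4 were higher and 2 lower (median 0.04). The counts were 3 and 2 without NZO/HlLtJ replicate 2 (median 0.30), and 3 and 2 with the marker covariates (median 0.39). Iigp1, which attacks the vacuoles of intracellular parasites, was at 306.8, 336.0 and 221.2 CPM against 0.393 to 352.8, a range that includes near absence in CAST/EiJ (0.507 CPM). Its log2 fold change of 1.62 ± 0.18 (adjusted p 1.84e-07) lost its call against classical strains only (adjusted p 0.117). Tgtp2 was at 10.8, 12.9 and 1.99 CPM against 0 to 12.5, and reads of close copies can be hard to assign to it. The lower pair were the obesity candidates Gm4951 and F830016B08Rik.

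Antigen presentation genes were split, with 7 higher and 6 lower of 24 (54.2% called beside 27.6% of all tested genes, median -0.11). The counts were 3 and 5 without NZO/HlLtJ replicate 1, 8 and 4 without replicate 3 (median 0.08), and 6 and 3 with the marker covariates (median 0.12). H2-Q7 was at 3.29, 2.5 and 3.05 CPM, below all others at 3.72 to 92.5 (log2 -2.75 ± 0.36, adjusted p 3.85e-06). H2-Q2 was at 19.5 to 27.5 CPM against a median of 1.43 (log2 3.66 ± 0.20, adjusted p 5e-13), and its log2 ratio of arithmetic means was 1.2. PWK/PhJ (32.3 CPM) and DBA/2J (25.5 CPM) averaged more H2-Q2 than NZO/HlLtJ (22.7 CPM). These class I genes are near-identical and polymorphic, and H2-Q7 had no whole counts in any library. The part of sequence differences between strains in these counts was not tested.

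**Figure D4:**
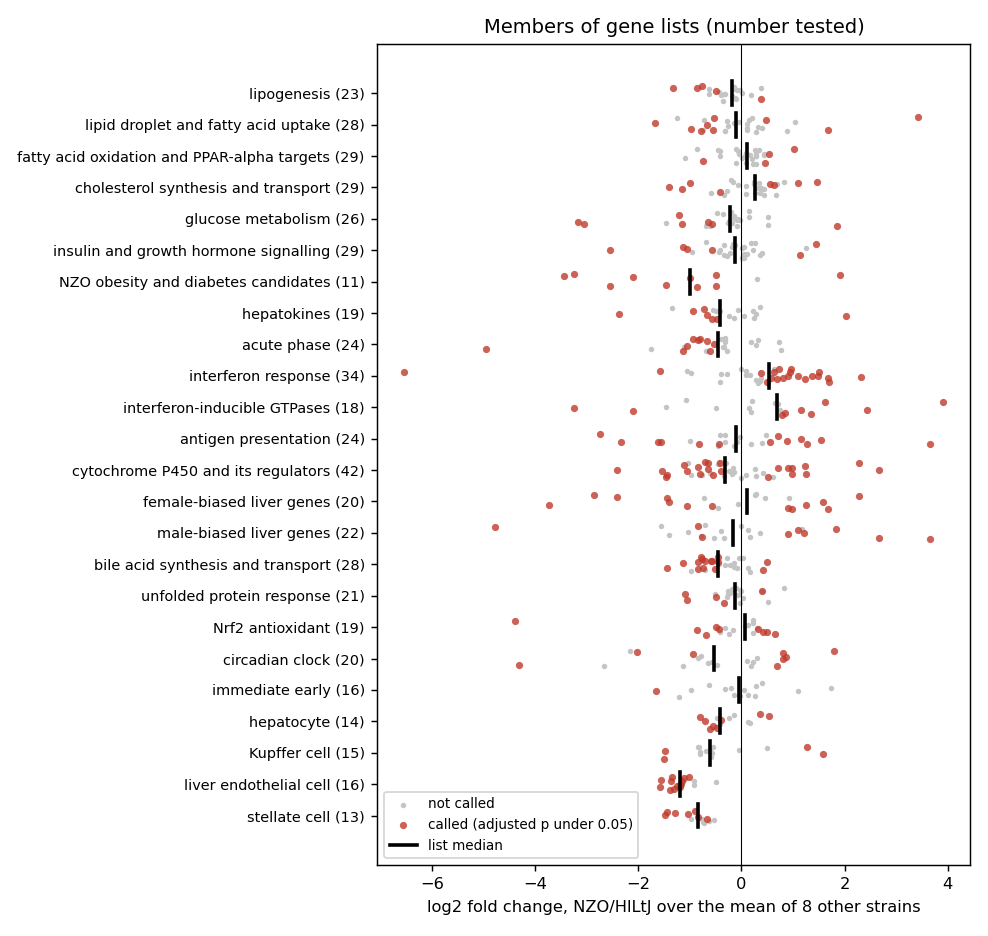
Log2 fold change of NZO/HlLtJ over the mean of 8 other strains for each tested member of 20 pathway lists and 4 cell type lists, with called genes in red, others in grey and the list median as a black bar. Interferon genes lie mostly to the right (median 0.53) and endothelial (-1.19) and bile acid genes (-0.46) to the left, while the medians of the 4 lipid lists lie between -0.19 and 0.26.

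Cytochrome P450 genes, which oxidise drugs, steroids and fatty acids, had 9 higher and 14 lower of 42 (54.8% called beside 27.6% of all tested genes, median -0.31). Without NZO/HlLtJ replicate 1, 2 or 3 the counts were 7 and 7, 7 and 8, and 5 and 15, and with the marker covariates 9 and 4. Cyp3a25 was at 355.8, 416.4 and 515.2 CPM against 484.5 to 3052 with a median of 1118 (log2 -1.46 ± 0.19, adjusted p 3.45e-06). Cyp2b13 was at 359.0, 403.9 and 406.7 CPM against 1.82 to 731.1 (log2 2.28 ± 0.17, adjusted p 2.6e-10), and its log2 ratio of arithmetic means was 0.90. Cyp2c38 was called higher (log2 1.24 ± 0.12) with PWK/PhJ at 0.312 CPM, but the 24 other libraries had a median of 197.6 CPM against 104.9, 129.7 and 182.5 in NZO/HlLtJ. Its log2 ratio of arithmetic means was -0.26 and its call was lost without PWK/PhJ, so its direction depends on the scale. Members of these families share sequence, and most of those named had counts that were not whole.

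Liver genes that differ between the sexes follow the pattern of growth hormone release. In these female mice 6 of 20 female-biased genes were higher and 7 lower (median 0.10), and 6 of 22 male-biased genes were higher and 3 lower (median -0.17). These were 65.0% and 40.9% called, beside 27.6% of all tested genes. The female-biased list had 3 higher and 6 lower with a median of -0.32 without NZO/HlLtJ replicate 2, and without replicate 3 the male-biased list had 5 and 5, and its median was 0.04 against the 5 classical strains. Both lists held genes that went in either direction. Cyp17a1, the steroid 17-hydroxylase, was at 2.14, 5.57 and 24.9 CPM against 36.8 to 833.0 with a median of 130.2. All NZO/HlLtJ libraries were below all others although they spanned a wide range themselves (log2 -3.74 ± 0.59, adjusted p 4.15e-05, and 0.0917 against each strain). Atp6v0d2 was higher at 19.0, 22.5 and 16.2 CPM against a median of 5.6 (log2 1.59 ± 0.23, adjusted p 1.13e-05), though C57BL/6J averaged 17.4 CPM and A/J 15.1 CPM. In the male-biased list, Susd4 was at 0.0255, 0.0759 and 0.128 CPM against 0.23 to 40.9 (adjusted p 9.7e-08). Nudt7, a peroxisomal coenzyme A hydrolase, was higher at 250.6, 247.2 and 226.9 CPM against a median of 100.1 (log2 1.21 ± 0.21, adjusted p 0.000115). DBA/2J averaged 212.6 CPM of Nudt7 and NOD/ShiLtJ 189.8 CPM.

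The circadian clock is a feedback loop in which ARNTL pairs with CLOCK or NPAS2 to switch on genes through E-boxes, and the nuclear receptors NR1D1 and NR1D2 repress Arntl, Npas2 and Nfil3 through response elements in their promoters. Of 20 clock genes 5 were higher and 3 lower in NZO/HlLtJ (40.0% called beside 27.6% of all tested genes, median -0.53). Among the higher ones 3, Npas2, Arntl and Nfil3, lay above all other libraries, as did 1.37% of all tested genes. The counts of higher and lower clock genes were 2 and 3 without NZO/HlLtJ replicate 1 (median -0.25), 3 and 2 without replicate 2 (median -0.30), and 2 and 2 with the marker covariates. The 8 called genes are those whose promoters were looked up, and 7 had a window in the RefSeq table for GRCm38.p6, from 250 bases before the start of transcription to 50 after. Both strands were searched for AGGTCA, the core bound by NR1D receptors, and for CACGTG, the E-box. AGGTCA was found in 16.3% and CACGTG in 7.15% of all 32851 windows. The motifs can share the letters CA where one follows the other. AGGTCA occurred once in Arntl (a window at chr7:113207261-113207560 on the plus strand), in Nfil3 (chr13:52980990-52981289 on the minus strand) and in Nr1d2 (chr14:18239057-18239356 on the minus strand). The other Arntl window, at chr7:113207215-113207514, held neither motif. CACGTG occurred once in Cry1 (chr10:85185005-85185304 on the minus strand) and in Bhlhe41 (chr6:145865371-145865670 on the minus strand), and the windows of Npas2 and Nr1d1 held neither. The 5 windows with a match are printed because their genes moved in the same comparison, 5′ to 3′ on the strand of the gene with matches in capitals. They are the C57BL/6J reference, not NZO/HlLtJ sequence.
Arntl: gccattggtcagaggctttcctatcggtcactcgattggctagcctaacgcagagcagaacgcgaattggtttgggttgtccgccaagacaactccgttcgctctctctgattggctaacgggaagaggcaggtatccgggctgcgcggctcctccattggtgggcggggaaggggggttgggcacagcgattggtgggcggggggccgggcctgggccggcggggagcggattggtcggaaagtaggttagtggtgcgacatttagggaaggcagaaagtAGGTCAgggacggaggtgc
Nfil3: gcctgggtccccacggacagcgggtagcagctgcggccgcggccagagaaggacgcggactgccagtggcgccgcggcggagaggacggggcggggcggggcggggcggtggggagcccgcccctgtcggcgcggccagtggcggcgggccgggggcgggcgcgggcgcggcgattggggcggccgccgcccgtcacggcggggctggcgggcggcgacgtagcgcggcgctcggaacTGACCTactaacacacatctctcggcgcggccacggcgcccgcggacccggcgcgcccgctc
Nr1d2: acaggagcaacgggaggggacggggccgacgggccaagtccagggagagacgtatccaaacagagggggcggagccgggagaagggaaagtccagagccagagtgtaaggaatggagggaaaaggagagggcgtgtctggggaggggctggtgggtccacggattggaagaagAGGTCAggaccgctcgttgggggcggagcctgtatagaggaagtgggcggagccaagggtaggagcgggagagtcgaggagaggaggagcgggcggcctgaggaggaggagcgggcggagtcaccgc
Cry1: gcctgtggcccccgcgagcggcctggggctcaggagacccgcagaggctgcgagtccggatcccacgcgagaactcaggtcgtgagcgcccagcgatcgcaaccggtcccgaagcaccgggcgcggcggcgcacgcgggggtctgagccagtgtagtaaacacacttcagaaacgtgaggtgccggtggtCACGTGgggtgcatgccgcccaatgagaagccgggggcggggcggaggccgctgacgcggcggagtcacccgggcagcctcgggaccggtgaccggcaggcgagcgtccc
Bhlhe41: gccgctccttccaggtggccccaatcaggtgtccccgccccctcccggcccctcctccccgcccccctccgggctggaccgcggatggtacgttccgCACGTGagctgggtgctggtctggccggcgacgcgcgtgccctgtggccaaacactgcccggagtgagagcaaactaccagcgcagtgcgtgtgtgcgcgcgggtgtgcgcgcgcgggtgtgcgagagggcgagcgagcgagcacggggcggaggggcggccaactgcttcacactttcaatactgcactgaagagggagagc
A match is a description of the letters in a window, not a site or a cause.

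Npas2 was at 13.7, 11.8 and 10.6 CPM against 0.493 to 9.31 with a median of 3.27 (log2 1.79 ± 0.34, adjusted p 0.000366). Arntl was at 20.7, 20.4 and 22.4 CPM against 3.51 to 19.8 with a median of 12.9 (log2 0.86 ± 0.26, adjusted p 0.0163). Nfil3, a repressor of D-box genes, was at 36.8, 33.5 and 33.8 CPM against 7.11 to 30.4 (log2 0.81 ± 0.21, adjusted p 0.007). For these 3 genes NOD/ShiLtJ was the next strain, at 7.32, 18.7 and 28.1 CPM. Cry1, a repressor of CLOCK and ARNTL, had a log2 fold change of 0.68 ± 0.23 (adjusted p 0.0282).

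The repressor Nr1d1 was low, at 9.12, 13.6 and 9.85 CPM against 7.72 to 102.4 with a median of 43.3 (log2 -2.02 ± 0.38, adjusted p 0.000309). Nr1d2 was at 13.5, 22.9 and 20.5 CPM against 16.6 to 78.7 (log2 -0.94 ± 0.21, adjusted p 0.00186). NOD/ShiLtJ was again next to NZO/HlLtJ in both, at 14.1 and 21.7 CPM. Nr1d1 overlaps Thra on the opposite strand, and its counts were not whole in any library. Bhlhe41 had 1 count in the 3 NZO/HlLtJ libraries together. With a floor of 3 counts it was at least 6.51-fold below the arithmetic mean of the other strains, which WSB/EiJ raised at 2.0 CPM. This bound does not hold for the geometric mean used in the other fold changes. NOD/ShiLtJ averaged 0.0115 CPM of Bhlhe41. Its call was lost without NZO/HlLtJ replicate 2, without NOD/ShiLtJ replicate 2 and with the marker covariates.

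Dbp, an output gene of the loop, was at 1.3, 0.759 and 0.77 CPM against a median of 3.44 and was not called (log2 -2.66 ± 1.02, adjusted p 0.054). Per1 was not called either: replicate 3 was at 20.2 CPM and the other pair at 1.35 and 1.47. PWK/PhJ had a like split in Per1, at 0.639, 0.893 and 14.7 CPM. Clock genes swing with the time of day, and the time at which livers were taken is not given in the sources used here, so strain and collection time cannot be told apart. Arntl lost its call without any 1 of the NZO/HlLtJ libraries, Cry1 without replicate 1 or 2 or against the 5 classical strains, and Nfil3 without replicate 1, and all 3 lost it with the marker covariates, while Npas2, Nr1d1 and Nr1d2 kept theirs in every alternative.

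**Figure D5:**
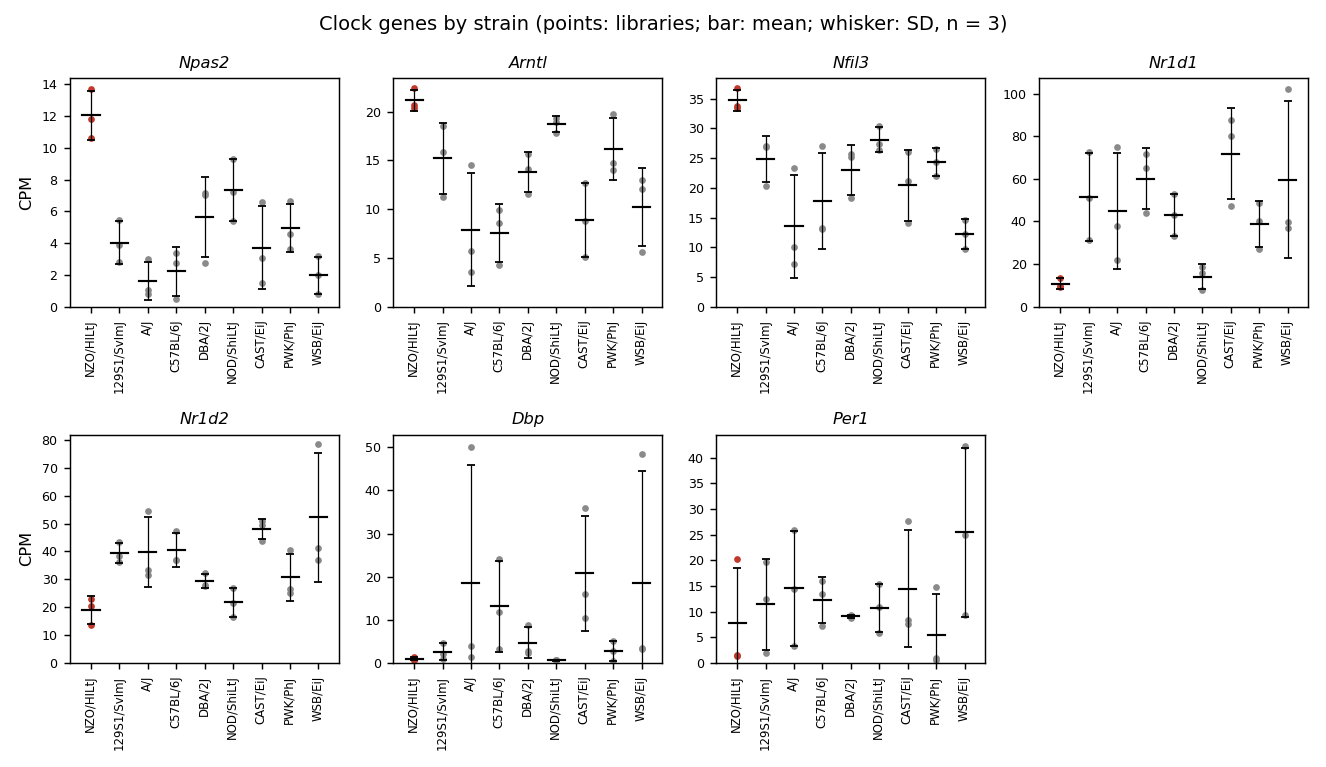
CPM of 7 clock genes by strain, with 1 point per library, the mean as a bar and the SD as a whisker (n = 3), NZO/HlLtJ in red. Npas2, Arntl and Nfil3 are highest in NZO/HlLtJ, and Nr1d1 and Nr1d2 are lowest there with NOD/ShiLtJ next. Per1 shows replicate 3 of NZO/HlLtJ at 20.2 CPM apart from the other pair, and PWK/PhJ has a like split.

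Of 21 genes of the unfolded protein response, by which the endoplasmic reticulum adjusts its folding capacity, 1 was higher and 4 were lower (23.8% called beside 27.6% of all tested genes, median -0.13), and 1 was lower without NZO/HlLtJ replicate 1. With the marker covariates edgeR called 0 of the 21 (1 higher and 1 lower at an unadjusted p under 0.05), against 1 and 4 by DESeq2 without covariates. Dnajb9, a chaperone of the endoplasmic reticulum, was at 18.9, 23.4 and 19.4 CPM against a median of 38.3 (log2 -1.06 ± 0.25, adjusted p 0.00261), a call lost with the marker covariates (adjusted p 0.0757). Among 19 targets of the antioxidant regulator Nrf2, 4 were higher and 5 lower (47.4% called beside 27.6% of all tested genes, median 0.07), 2 and 1 without NZO/HlLtJ replicate 1, and 1 and 3 with the marker covariates (median -0.06). Txnrd1, a thioredoxin reductase, was at 113.8, 117.9 and 115.0 CPM, above all others at 45.3 to 109.2 (log2 0.65 ± 0.11, adjusted p 0.000115), and Nfe2l2, which encodes Nrf2 itself, fell by 0.44 ± 0.11 on the log2 scale, a call lost without replicate 1 and with the marker covariates. Gstm3 was at 0.609 to 1.04 CPM against a median of 21.8, with PWK/PhJ lower still at 0.235 CPM. Immediate early genes, which respond to cell isolation, had 1 called of 16 (6.25%, beside 27.6% of all tested genes). It was Klf2 (log2 -1.66 ± 0.48, adjusted p 0.0133), a gene also expressed by endothelium. Klf2 lost its call without replicate 1 or 2 and with the marker covariates (log2 -0.48, adjusted p 0.467). Egr1 ranged from 7.54 to 93.7 CPM among the NZO/HlLtJ libraries and was not called.

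In the lists of other cell types, 13 of 16 endothelial markers were lower (81.2%, beside 12.9% of all tested genes, median -1.19), as were 7 of 13 stellate cell markers (53.8%, median -0.85), of which 1 was lower without replicate 1 or 2. With the marker covariates edgeR called 0 of the 13 stellate markers (median -0.04, 2 lower at an unadjusted p under 0.05), against 7 lower by DESeq2 without covariates. Pecam1, Kdr, Stab1 and Tek, which define endothelium, fell by 1.16, 1.26, 1.36 and 1.59 on the log2 scale. The endothelial count was 3 without NZO/HlLtJ replicate 1, 3 without replicate 2 and 13 without replicate 3, and no endothelial marker had all 3 libraries below the range of the others. Of 15 Kupffer cell markers 2 were higher and 2 lower (26.7% called, near the 27.6% of all tested genes), and 0 and 1 without NZO/HlLtJ replicate 2. Of 5 erythroid markers tested 1 was called (20.0%, beside 27.6% of all tested genes) and 4 had log2 fold changes below 0 (median -1.60). The one called, Alas2, the red-cell form of the enzyme that starts heme synthesis, was higher at 24.2, 20.0 and 24.3 CPM against 0.73 to 14.7 (log2 2.17 ± 0.17, adjusted p 5.12e-10), while the red cell membrane gene Slc4a1 was at 0. Of 14 hepatocyte markers 2 were higher and 6 lower (57.1% called beside 27.6% of all tested genes, median -0.41). The counts were 0 and 3 without NZO/HlLtJ replicate 1, 1 and 0 without replicate 2 (2 and 6 at an unadjusted p under 0.05), and 0 and 4 without replicate 3, while the median stayed between -0.43 and -0.38. With the marker covariates edgeR called 0 of the 14 (1 higher and 5 lower at an unadjusted p under 0.05), against 2 and 8 by DESeq2 without covariates. The part of these shifts in the metabolic differences was not tested beyond the fit with marker covariates.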

How the data were processed

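Polyadenylated RNA of hepatocytes was sequenced from 27 libraries. The authors deposited 1 table of estimated counts (expected counts) per Ensembl gene, with no scaling; 11.07% of its values, in 9334 genes, were not whole at a tolerance of 1e-06. FastQC 0.11.5, DESeq2 and the builds GRCm38 and mm10 are named per the submitters' processing notes. The aligner, the counting program and whether reads were aligned to a genome of each strain are not given in the sources used here. Libraries are numbered biological replicates, with no animal named, so p-values measure the spread between these libraries, which may be technical in part. The 3 NZO/HlLtJ libraries differed pairwise by 26.8 to 42.8 times the counting noise (chi-square per degree of freedom).

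Counts were rounded, which changed totals by at most 0.00024%. GENCODE M21 (GRCm38) gave symbols and positions for 42462 of 43346 genes; the others held 0.0579% of the counts. The main test was the quasi-likelihood test of edgeR 4.0.16 in R 4.3.3, with TMM factors, filterByExpr and 1 coefficient per strain. The contrast set NZO/HlLtJ against the mean of the 8 other coefficients, so a fold change is over a geometric mean of strains. Against each strain, the largest of 8 pairwise p-values was adjusted over all 14482 tested genes; these contrasts share the NZO/HlLtJ libraries. SEs derive from the F statistic. The fit was tested on simulated data.

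Named genes were those called in both tests with at least 10 CPM and no overlap (up to 12 per direction, predicted genes, pseudogenes and major urinary protein genes passed over), the candidate list, up to 4 members per pathway list by adjusted p, and genes said to be chosen afterwards; other members are named in passing with their list. The strain, lists and members were chosen with earlier results of these data known. Alternatives were DESeq2 1.42.0, median-of-ratios factors, 2 count filters, a replicate block, marker covariates, a GC trend (99.1% of tested genes had a GC value), each library or strain left out, classical strains only, and arithmetic means. Counting floors cover counting error only. Some genes are not reported here.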

Additional observations from a re-analysis of the deposited data

How the results depend on the processing

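The count of genes called against the mean was 4002 and ran from 2085 to 4501 when single libraries were left out, with 1226 to 2455 higher and 827 to 2101 lower. With the marker covariates it was 1597 (960 higher and 637 lower). The share of calls that were higher was 53.5%, and ran from 48.4% (DESeq2) to 60.3% over all alternatives. The count of 24 against each strain ran from 15 to 25 without single libraries, with 5 to 10 higher and 10 to 15 lower. It was 39 with DESeq2 (16 higher, 23 lower), 13 with marker covariates (3 higher), 44 without CAST/EiJ (21 and 23), 41 without PWK/PhJ (18 and 23) and 104 against the 5 other classical strains (42 and 62), the last 3 with fewer strains to differ from. Of 115 named genes 100 were called, and 69 of these kept call and direction in all 43 alternatives. Cyp2c38 alone among these 100 called genes changed sign, with a log2 fold change of -0.31 against the classical strains and -0.26 from arithmetic means. The cause was not tested. Sult2a4, described below, is not among the 115.

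Replicate numbers showed little pairing of the samples on average over all genes. Libraries of different strains with the same number correlated at 0.0101 on average in their deviations (76 pairs, -0.293 to 0.275). For pairs that include NZO/HlLtJ the mean was 0.0571 with the same number and -0.0207 with another. Such a mean can miss single genes. Per1 was highest in replicate 3 in 129S1/SvImJ, A/J, NOD/ShiLtJ, PWK/PhJ and NZO/HlLtJ. In DBA/2J and WSB/EiJ it was not. With the replicate number as a block, 3561 genes were called against the mean (1878 higher and 1683 lower) and 20 against each strain. At 3 libraries per strain, genes with few counts could be called only for large differences, and the limits of depth are those of 1 count at 0.0253 to 0.0515 CPM.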

Other observations

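Gene groups outside the lists were examined after their values were seen. Of 13 protein genes of the mitochondrial genome, which encode subunits of the respiratory chain and ATP synthase, 11 were lower in NZO/HlLtJ, beside 12.9% of all tested genes. The gene mt-Nd2 was at 954.3, 882.7 and 1116 CPM against 1282 to 5644 with a median of 2684, below all other libraries (log2 -1.48 ± 0.24). The genes mt-Atp8 and mt-Atp6 were also below all others (log2 -1.35 and -1.11), while mt-Co2 (0.11) and mt-Nd4l (-0.14) were not called. PWK/PhJ was at only 20.3 and 8.85 CPM for these 2 genes, and by arithmetic means their log2 ratios were -0.51 and -0.63, with 19 and 20 of the 24 other libraries above all of NZO/HlLtJ.

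Neighbouring genes of 1 family went in different directions on chromosome 3: of 7 tested mu-class glutathione transferases Gstm7 was higher, and Gstm2, Gstm3, Gstm5 and Gstm6 were lower (log2 -2.02, -4.40, -1.73 and -1.50), beside 14.8% higher and 12.9% lower of all tested genes. In the Sult2a cluster on chromosome 7, 5 of 8 tested genes were called higher, beside 14.8% of all tested genes, among them Sult2a6 (log2 2.94 ± 0.34) and Sult2a2 (1.48 ± 0.26) beside Sult2a7. By arithmetic means the log2 ratio was 0.71 for Sult2a6, 0.29 for Sult2a2 and -0.32 for Sult2a4, whose direction thus turned; PWK/PhJ had 0 and 0.238 CPM of the former pair and C57BL/6J 0.0114 CPM of Sult2a4. Most members of both clusters had counts that were not whole, unlike Gstm7 and Sult2a7.

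Replicate 3 of NZO/HlLtJ stood apart from the other pair in several genes: Per1 was at 1.35, 1.47 and 20.2 CPM, Cyp17a1 at 2.14, 5.57 and 24.9, and Cyp4a12a at 3.29, 2.1 and 29.6. For Per1 the split was not particular to NZO/HlLtJ: PWK/PhJ was at 0.639, 0.893 and 14.7 CPM in replicates 1, 2 and 3. Replicate 3 was also the highest in 129S1/SvImJ, A/J and NOD/ShiLtJ, but not in DBA/2J or WSB/EiJ.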
